A study of Mus musculus with 7 samples.

Results

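The genes described here are 47 genes of the G2 and M phases of the cell cycle with known roles in mitosis and the spindle checkpoint, listed by those roles. Of these, 44 had a probe set annotated to that gene alone, among 12393 genes so represented in the series, and each was followed on its brightest probe set, judged by the mean level of the 7 arrays. Ccnb1, Cdca8 and Espl1 were not analysed here, and kinesins were not part of the list. The RNA came from MN9D, a mouse line that makes dopamine and was derived from a fusion of embryonic midbrain neurons with neuroblastoma cells. A first group of 4 arrays came from MN9D cells made to overexpress both hemoglobin chains of the mouse, alpha- and beta-, and 3 arrays came from MN9D cells that carried the empty vector. Per the design text there were 8 hybridisations, and 1 of a control sample was dropped for quality and is not analysed here. The labels name no promoter for the transgenes and do not say whether the lines were clones or pools, or whether replicates were separate cultures, so p-values reflect the spread among these arrays alone, and that spread may be technical. Values are the authors' RMA expression levels on the log2 scale from mouse 430A 2.0 arrays, differences are globin-labelled minus empty vector on that scale, and the number after ± is limma's standard error unless it is called an SD. Precision is limited by how few arrays there are.

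A cell enters mitosis when cyclin-bound CDK1 is freed of inhibitory phosphates by CDC25 phosphatases, and the Polo-like and Aurora kinases then act on centrosomes, chromosomes and spindle. Condensin and topoisomerase II compact the chromosomes, kinetochores built on centromeric chromatin attach them to microtubules, and the spindle checkpoint holds back the anaphase-promoting complex until attachment is complete. The complex then marks cyclin B and securin for destruction, sister chromatids part, and the cleavage furrow divides the cell. Most of these genes are transcribed late in the cycle, and the MuvB complex with B-MYB, together with FOXM1, binds many of their promoters, whereas the same MuvB core with p107 or p130 represses them in resting cells. In a cultured line such as MN9D these transcripts are made as long as the cells divide. In these arrays the mean levels of Cdc25c, Cenph and Foxm1 lay under the array medians of 8.90 to 8.94 in both groups. That of Cenpe did so in the empty vector arrays, and the other measured genes lay above the medians.

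The label of the transgene was checked first. The 3 probe sets that read both adult alpha-globin genes averaged 14.30 ± 0.02, 14.53 ± 0.04 and 11.41 ± 0.08 in the globin-labelled arrays, against 7.15 ± 0.34, 8.68 ± 0.11 and 6.25 ± 0.18 in the empty vector arrays (SD, n = 4 and n = 3). The probe sets annotated to Hba-a2 alone and to Hba-a1 alone did not pass, at -0.03 ± 0.05 and 0.03 ± 0.06 (limma adjusted p = 0.626 and 0.697). The probe set that reads the adult beta-globin genes together differed by 0.12 ± 0.06 and did not pass (limma adjusted p = 0.149). Of the pair of probe sets annotated to Hbb-b2 alone, 1 rose by 0.34 ± 0.07, at 6.61 ± 0.07 in the globin-labelled and 6.28 ± 0.16 in the empty vector arrays (SD, limma adjusted p = 0.00558), and the other did not pass at -0.05 ± 0.07 (limma adjusted p = 0.608). The arrays are therefore named after their label, and each direction below rests on it. Th, which encodes the tyrosine hydroxylase of dopamine synthesis, stood at 11.08 in the globin-labelled and 11.78 in the empty vector arrays, whereas the transcription factors Nr4a2 and Pitx3 (means 8.04 and 7.25 in the globin-labelled, 8.17 and 7.19 in the empty vector arrays) lay under the array medians of 8.90 to 8.94. Of 6 dopaminergic and neuronal markers 4 fell and 0 rose by the limma test used below. Of 15 markers of astrocytes, oligodendrocytes, fibroblasts and blood cells, 0 rose and 2, Mbp and Cd68, fell, and their mean log2 level lay between 6.17 and 6.22 in the globin-labelled arrays and between 6.30 and 6.31 in the empty vector arrays. Among 5 control transcripts with probe sets at either end, the 3' minus 5' difference of pyruvate carboxylase was 0.01 ± 0.06 in the globin-labelled arrays and -0.32 ± 0.08 in the empty vector arrays (SD, n = 4 and n = 3, two-sided exact permutation p = 0.0286, the smallest that 35 arrangements of the arrays allow), and the other 4 differed by 0.10 at most. The part of these shifts in the results below was not tested.

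Most mitosis genes had higher levels with the globin label, by small steps. The genes were chosen with earlier results of these data known. Of the 44 measured genes 33 rose, 5 fell and 6 did not pass at a limma adjusted p under 0.05. That is 75.0% higher and 11.4% lower, where 20.6% of all 12393 genes were called higher and 20.1% lower. Those shares over all genes include dim ones, whereas the lowest mean level of the 44 genes was 8.36. The 25th percentile of probe set means was 6.84. With probe sets up to that percentile removed, 8842 of 16969 were called in either direction, against 8931 of all 22626. The median difference was 0.31 over the 44 genes and 0.02 over all genes. Among the 33 that rose the median was 0.39, or 1.31-fold, and 3 reached 1.5-fold: Cenpa, Incenp and Racgap1. Among the 5 that fell, 1 did, Birc5. Of all 12393 genes 654 differed by at least 1.5-fold in either direction, called or not, beside these 4 of 44. The arrays of the groups were fully apart at the same 38 genes, 33 above and 5 below, where 23.1% of all genes lay apart with the globin-labelled arrays above and 22.6% with them below. Set against each gene's own mean over the 7 arrays, the median level of the 44 genes lay 0.09, 0.13, 0.17 and 0.09 above it in the 4 globin-labelled arrays, and at -0.14, -0.20 and -0.18 in the 3 empty vector arrays, while the same median over all genes stayed between -0.01 and 0.01 in each array. In RNA from whole cultures, more cells in mitosis and more of each transcript per mitotic cell cannot be told apart. A minimum fold of 1.2 in limma's treat test, a stricter question, left 10 genes higher and 1 lower. Over all 22626 probe sets that test called 2066 in either direction.

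**Figure D1:**
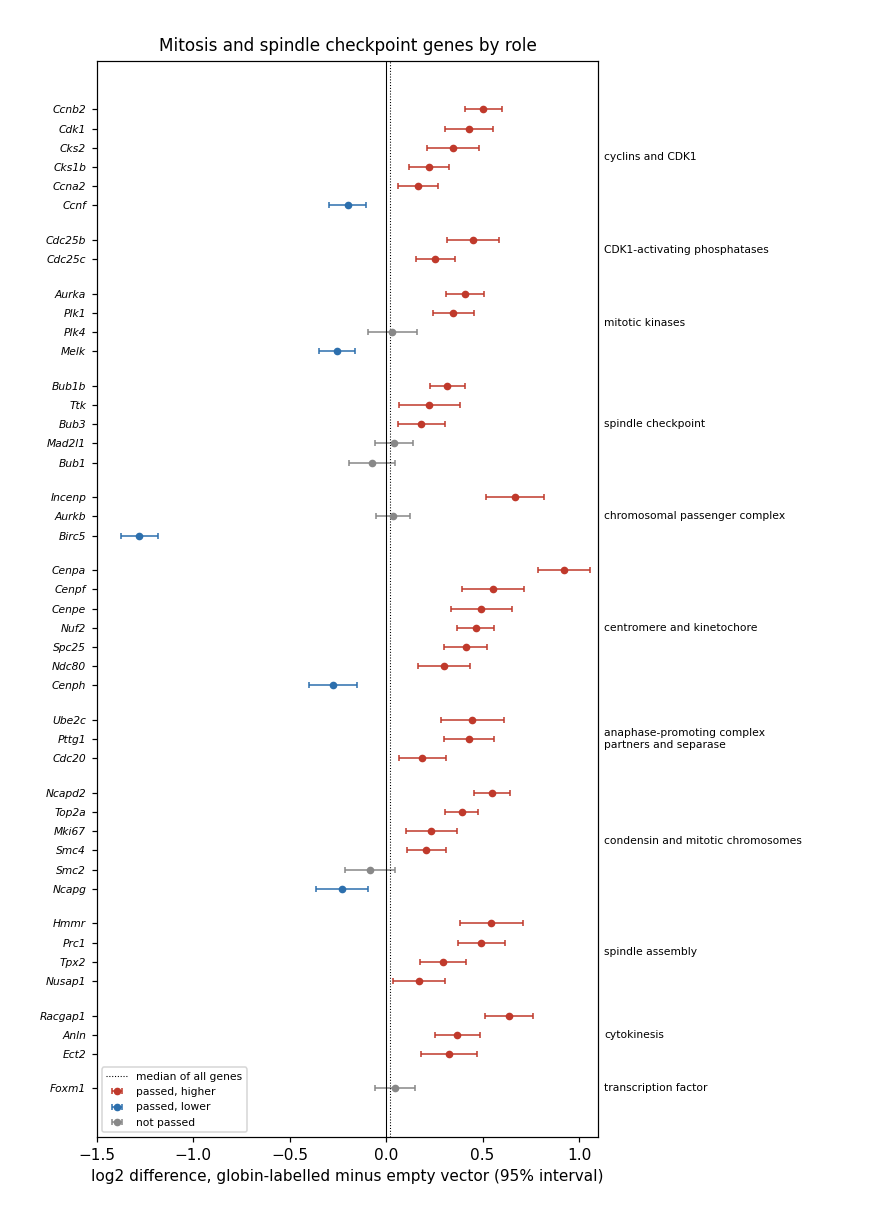
Log2 difference, globin-labelled minus empty vector, of the 44 measured mitosis and spindle checkpoint genes (points, with 95% confidence intervals as bars), grouped by role down the page; red and blue points passed at a limma adjusted p under 0.05, grey points did not, and the dotted line is the median of all genes at 0.02. The 33 genes that rose lie between 0.16 and 0.92, 4 of the 5 that fell lie between -0.28 and -0.20, and Birc5 lies alone at -1.28.

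Promoters of these genes are shown because the known regulators of late cell cycle genes read short elements near the start site. The elements are the cell cycle homology region, or CHR (TTTGAA or TTTAAA), bound by MuvB, and the CCAAT box (CCAAT), bound by NF-Y. Their part in the differences was not tested. RefSeq promoters of GRCm38.p6, 250 bases before to 50 bases after the annotated start, were at hand for 37 of the 44 genes, and the first listed was used for a gene with more than 1. None was at hand for Incenp, Tpx2, Cdc25c, Smc4, Ccna2, Foxm1 and Aurkb. Incenp, the second largest rise, is therefore not among the promoters printed below. On either strand, 28 of the 37 held a CHR (75.7%) and 28 held CCAAT (75.7%), against 21.0% and 38.1% of 9887 measured genes with a promoter. A CHR within 50 bases of the start was found in 24 of the 37 promoters (64.9%), against 5.7% of the measured genes, and 24 held both a CHR and CCAAT (64.9%, against 8.4%). The E2F letters TTTGGCGC or TTTCCCGC occurred in 2 of the 37 (5.4%), against 2.7% of the measured genes. Of the 28 genes with a CHR, 23 rose and 3 fell, with a median difference of 0.36. Of the 9 without it 5 rose, and Melk and Cenph fell, with a median of 0.17. Split by CCAAT, 23 of 28 genes with it and 5 of 9 without it rose, with medians of 0.37 and 0.17. As 24 promoters held both, the 2 elements cannot be told apart here. A match describes the letters and is not evidence of binding, and these shares carry no test. The genes were chosen as genes of the G2 and M phases, whose known regulators read these elements. High shares of CHR and CCAAT therefore go with the choice of genes and carry no information on the globin label. The promoters of the largest rise and the largest fall, and of the next 4 rises with a CHR, are given 5′ to 3′ with CHR, CCAAT and E2F letters of either strand in capitals (CCAAT reads ATTGG on the other strand).
Cenpa, chr5:30666636-30666935, plus strand: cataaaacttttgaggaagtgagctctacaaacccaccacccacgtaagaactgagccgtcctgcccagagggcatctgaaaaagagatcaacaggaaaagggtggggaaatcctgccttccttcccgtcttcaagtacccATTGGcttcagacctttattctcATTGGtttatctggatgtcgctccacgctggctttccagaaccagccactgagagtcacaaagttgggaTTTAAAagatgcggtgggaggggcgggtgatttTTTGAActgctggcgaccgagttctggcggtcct
Racgap1, chr15:99651607-99651906, minus strand: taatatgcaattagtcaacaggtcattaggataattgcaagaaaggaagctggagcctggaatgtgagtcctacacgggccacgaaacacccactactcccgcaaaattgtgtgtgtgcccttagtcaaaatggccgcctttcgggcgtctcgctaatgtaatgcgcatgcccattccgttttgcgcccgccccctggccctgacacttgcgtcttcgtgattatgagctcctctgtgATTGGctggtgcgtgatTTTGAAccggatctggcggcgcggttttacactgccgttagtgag
Cenpf, chr1:189688037-189688336, minus strand: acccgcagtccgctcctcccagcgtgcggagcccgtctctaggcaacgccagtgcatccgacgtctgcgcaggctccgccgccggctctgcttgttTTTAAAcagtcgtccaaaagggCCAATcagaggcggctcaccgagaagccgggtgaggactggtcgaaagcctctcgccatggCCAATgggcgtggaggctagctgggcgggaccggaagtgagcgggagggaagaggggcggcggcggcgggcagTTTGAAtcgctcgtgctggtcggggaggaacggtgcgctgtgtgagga
Ncapd2, chr6:125191537-125191836, minus strand: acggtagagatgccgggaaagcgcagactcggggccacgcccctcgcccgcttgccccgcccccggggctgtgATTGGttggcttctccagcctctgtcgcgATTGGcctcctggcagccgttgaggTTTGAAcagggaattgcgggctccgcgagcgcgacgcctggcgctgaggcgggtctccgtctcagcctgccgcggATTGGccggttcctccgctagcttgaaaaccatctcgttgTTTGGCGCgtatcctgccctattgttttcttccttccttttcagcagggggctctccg
Hmmr, chr11:40733388-40733687, minus strand: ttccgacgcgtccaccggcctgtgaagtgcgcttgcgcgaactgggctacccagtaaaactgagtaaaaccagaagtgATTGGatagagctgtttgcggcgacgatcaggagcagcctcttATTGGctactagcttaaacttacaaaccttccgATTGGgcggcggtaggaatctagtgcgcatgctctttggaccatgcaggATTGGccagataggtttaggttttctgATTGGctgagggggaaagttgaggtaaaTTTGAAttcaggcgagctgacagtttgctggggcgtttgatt
Birc5, chr11:117848987-117849286, plus strand: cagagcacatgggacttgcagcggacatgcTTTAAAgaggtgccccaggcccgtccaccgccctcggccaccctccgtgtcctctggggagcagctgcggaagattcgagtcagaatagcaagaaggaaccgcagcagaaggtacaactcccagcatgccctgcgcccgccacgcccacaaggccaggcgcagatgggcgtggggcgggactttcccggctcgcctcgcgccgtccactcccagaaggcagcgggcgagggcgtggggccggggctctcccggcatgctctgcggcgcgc
The first 5 belong to genes that rose and carry from 1 to 5 CCAAT letters each, with a CHR close to the start in Cenpa, Racgap1, Cenpf and Hmmr and farther upstream in Ncapd2. That of Birc5, which fell, carries 1 CHR far upstream and no CCAAT in this window. Promoters not printed here did not all follow this contrast. Ccnf and Ncapg fell and hold both a CHR and CCAAT, Melk fell with neither, and Nuf2, Pttg1 and Nusap1 rose with neither.

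Cyclins and CDK1 were higher with 1 exception. Ccnb2, a B-type cyclin that activates CDK1, had levels of 10.86, 10.84, 10.77 and 10.76 in the globin-labelled arrays, against 10.30, 10.29 and 10.33 in the empty vector arrays. The groups were widely apart, by 0.50 ± 0.04 or 1.42-fold (limma adjusted p = 1.99e-05). Cdk1, the kinase itself, averaged 11.18 in the globin-labelled and 10.75 in the empty vector arrays and rose by 0.43 ± 0.06 (limma adjusted p = 2.53e-04). Cks2 and Cks1b, the small subunits that help CDKs hold on to phosphorylated substrates, rose by 0.34 ± 0.06 and 0.22 ± 0.05 (limma adjusted p = 0.00148 and 0.00425). Ccna2, cyclin A2, which acts in S phase and at mitotic entry, had 11.81, 11.85, 11.88 and 11.83 in the globin-labelled arrays, against 11.73, 11.60 and 11.71 in the empty vector arrays, a narrow gap, and rose by 0.16 ± 0.05 (limma adjusted p = 0.0175). The call ended when empty vector array 2 was left out (0.12, limma adjusted p = 0.0623). Ccnf, a cyclin-like F-box protein that directs ubiquitin ligase activity and binds no CDK, had 9.42, 9.50, 9.47 and 9.39 in the globin-labelled arrays, against 9.65, 9.60 and 9.68 in the empty vector arrays. All 4 globin-labelled arrays lay below the 3 empty vector arrays, and Ccnf fell by 0.20 ± 0.04 (limma adjusted p = 0.00494). Both phosphatases that switch CDK1 on were higher, Cdc25b by 0.45 ± 0.06 (limma adjusted p = 3.12e-04) and Cdc25c by 0.26 ± 0.05 (limma adjusted p = 0.00179).

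Of the 4 mitotic kinases outside the checkpoint, Aurka, the centrosomal Aurora kinase, rose by 0.41 ± 0.04 and Plk1, the Polo-like kinase of mitotic entry and exit, rose by 0.35 ± 0.05 (limma adjusted p = 8.16e-05 and 3.60e-04). Melk, an embryonic leucine zipper kinase expressed in dividing cells, went the other way. Its levels were 9.19, 9.23, 9.24 and 9.27 in the globin-labelled arrays, against 9.52, 9.43 and 9.51 in the empty vector arrays, with no overlap, and it fell by 0.26 ± 0.04 (limma adjusted p = 0.00101). Plk4, which starts centriole duplication, did not pass on its brightest probe set, where the levels were 10.92, 11.06, 11.05 and 11.10 in the globin-labelled arrays, against 11.09, 10.94 and 10.97 in the empty vector arrays and the groups overlapped throughout. That difference was 0.03 ± 0.06, with a 95% interval from -0.10 to 0.16.

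The spindle checkpoint rose in part. Bub1b, which encodes the inhibitor BUBR1 of the anaphase-promoting complex, rose by 0.32 ± 0.04 (levels of 10.44 ± 0.03 in the globin-labelled and 10.12 ± 0.04 in the empty vector arrays, SD, limma adjusted p = 2.11e-04). Ttk, the kinase MPS1 that starts checkpoint signalling, rose by 0.22 ± 0.07 (limma adjusted p = 0.0305), a call that ended without empty vector array 2 or 3 or globin-labelled array 3 or 4 (limma adjusted p = 0.0736 to 0.115). Bub3, the scaffold that docks BUB1 and BUBR1 at kinetochores, had 12.88, 13.02, 12.93 and 12.86 in the globin-labelled arrays, against 12.83, 12.68 and 12.72 in the empty vector arrays. The nearest pair of arrays differed little, and the rise of 0.18 ± 0.05 (limma adjusted p = 0.0252) ended without empty vector array 2 or 3 or globin-labelled array 2 or 3 (limma adjusted p = 0.0572 to 0.0944). Mad2l1, which encodes the checkpoint effector MAD2, and Bub1, the kinetochore kinase, did not pass. Their differences were 0.04 ± 0.04 (95% interval -0.06 to 0.14) and -0.07 ± 0.05 (95% interval -0.19 to 0.05), and both intervals include 0.

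The chromosomal passenger complex, which corrects faulty attachments and later guides cytokinesis, held both the second largest rise and the largest fall of the 44 genes. Incenp, its scaffold, had 11.12, 11.16, 11.27 and 11.37 in the globin-labelled arrays, against 10.65, 10.54 and 10.49 in the empty vector arrays. Every globin-labelled array was higher, and the rise was 0.67 ± 0.07 or 1.59-fold (limma adjusted p = 6.01e-05). Birc5, which encodes survivin, the subunit that brings the complex to centromeres and also an inhibitor of apoptosis, had 10.93, 10.92, 10.92 and 10.83 in the globin-labelled arrays, against 12.14, 12.22 and 12.18 in the empty vector arrays. The gap between the groups was many times the spread within them. Birc5 fell by 1.28 ± 0.04, a level 2.43-fold lower (limma adjusted p = 7.90e-08). Aurkb, the kinase of the complex, did not pass, with a difference of 0.04 ± 0.04 and a 95% interval from -0.05 to 0.12. The 3 measured subunits of a single complex thus had a rise, a fall and a difference that did not pass.

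At centromeres and kinetochores 6 of 7 genes rose. Cenpa, the histone H3 variant that marks the centromere, had 10.16, 10.22, 10.34 and 10.13 in the globin-labelled arrays, against 9.31, 9.35 and 9.20 in the empty vector arrays. No array of either group came near the other group, and the rise of 0.92 ± 0.06 or 1.90-fold was the largest of the 44 (limma adjusted p = 4.54e-06). Cenpf, a large protein of the outer kinetochore and nuclear envelope, had 11.48, 11.56, 11.62 and 11.63 in the globin-labelled arrays, against 11.18, 11.01 and 10.87 in the empty vector arrays. The empty vector arrays were widely spread, with array 1 the highest, and the rise was 0.55 ± 0.07 (limma adjusted p = 2.70e-04). Cenpe, a kinetochore motor that moves chromosomes to the metaphase plate, rose by 0.49 ± 0.07 (limma adjusted p = 4.91e-04). The 3 measured subunits of the NDC80 complex, which grips microtubules, rose together: Nuf2 by 0.46 ± 0.04, Spc25 by 0.41 ± 0.05 and Ndc80 by 0.30 ± 0.06 (limma adjusted p = 3.73e-05, 1.73e-04 and 0.00328). Cenph, a part of the inner kinetochore, had 8.31, 8.31, 8.45 and 8.23 in the globin-labelled arrays, against 8.56, 8.62 and 8.62 in the empty vector arrays. The groups did not overlap, and Cenph fell by 0.28 ± 0.06 (limma adjusted p = 0.0033).

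The partners of the anaphase-promoting complex rose. Ube2c, the ubiquitin-conjugating enzyme that serves it, rose by 0.45 ± 0.07 (limma adjusted p = 0.00106), and Pttg1, securin, which holds separase inactive until anaphase, by 0.43 ± 0.06 (limma adjusted p = 3.58e-04). Cdc20, the activator that the checkpoint inhibits, had 11.41, 11.55, 11.44 and 11.39 in the globin-labelled arrays, against 11.22, 11.21 and 11.35 in the empty vector arrays. The smallest gap between the groups was a few hundredths, and the rise of 0.19 ± 0.05 (limma adjusted p = 0.0218) ended without empty vector array 1 or 2 or globin-labelled array 2 (limma adjusted p = 0.0505 to 0.0795).

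Among genes of chromosome structure, Ncapd2, a regulatory subunit of condensin I, had 10.53, 10.51, 10.50 and 10.45 in the globin-labelled arrays, against 9.96, 9.99 and 9.90 in the empty vector arrays. Each group was tight, and the rise was 0.55 ± 0.04 or 1.46-fold (limma adjusted p = 1.14e-05). Top2a, the topoisomerase that untangles sister DNA, had 12.55, 12.51, 12.60 and 12.58 in the globin-labelled arrays, against 12.18, 12.18 and 12.15 in the empty vector arrays. The groups stood well apart, with a rise of 0.39 ± 0.04 (limma adjusted p = 5.83e-05). Smc4, a core ATPase of condensin, had 12.10, 12.13, 12.18 and 12.16 in the globin-labelled arrays, against 12.01, 11.92 and 11.87 in the empty vector arrays, and rose by 0.21 ± 0.05 (limma adjusted p = 0.00545). Its partner Smc2 did not pass, at -0.08 ± 0.06 (95% interval -0.21 to 0.04). Ncapg, another condensin I subunit, had 9.58, 9.63, 9.62 and 9.47 in the globin-labelled arrays, against 9.93, 9.76 and 9.73 in the empty vector arrays. Empty vector array 1 was the highest, and the fall was 0.23 ± 0.06 (limma adjusted p = 0.0144). Leaving out that array together with globin-labelled array 4 ended this call (-0.13, limma adjusted p = 0.0563). Mki67, the coat protein of mitotic chromosomes known as a proliferation marker, rose by 0.23 ± 0.06 or 1.18-fold (limma adjusted p = 0.0109).

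Spindle and cytokinesis genes all rose, 7 of 7 measured. Hmmr, a microtubule-binding protein of spindle poles, had 10.49, 10.65, 10.68 and 10.61 in the globin-labelled arrays, against 10.22, 10.03 and 9.94 in the empty vector arrays. The lowest globin-labelled array was still above the highest empty vector array, and the rise was 0.54 ± 0.07 (limma adjusted p = 3.03e-04). Prc1, which bundles the microtubules of the central spindle, had 11.13, 11.14, 11.20 and 11.08 in the globin-labelled arrays, against 10.76, 10.59 and 10.59 in the empty vector arrays. Here too empty vector array 1 was the highest of its group, and the rise was 0.49 ± 0.05 (limma adjusted p = 1.02e-04). Tpx2, which activates Aurora A on spindle microtubules, rose by 0.29 ± 0.05 (limma adjusted p = 0.00193). Nusap1, a spindle-associated protein that stabilises microtubules near chromosomes, had 11.31, 11.35, 11.46 and 11.33 in the globin-labelled arrays, against 11.31, 11.09 and 11.18 in the empty vector arrays. The groups nearly met, and the rise of 0.17 ± 0.06 (limma adjusted p = 0.0471) held without empty vector array 1 and ended without any other single array (limma adjusted p = 0.0567 to 0.17). Racgap1, the GTPase-activating subunit of centralspindlin, had 11.45, 11.49, 11.33 and 11.32 in the globin-labelled arrays, against 10.73, 10.72 and 10.83 in the empty vector arrays. The groups were well apart, and the rise was 0.63 ± 0.06 or 1.55-fold (limma adjusted p = 2.62e-05). Ect2, the exchange factor that Racgap1's product recruits to start the furrow, and Anln, the furrow scaffold anillin, rose by 0.33 ± 0.06 and 0.37 ± 0.05 (limma adjusted p = 0.0029 and 4.18e-04).

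Foxm1, the forkhead factor that drives many late cell cycle genes, did not pass. Its levels were 8.92, 8.79, 8.93 and 8.85 in the globin-labelled arrays, against 8.80, 8.84 and 8.85 in the empty vector arrays, with wide overlap. The difference was 0.04 ± 0.05, with a 95% interval from -0.06 to 0.15 (limma adjusted p = 0.493).

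**Figure D2:**
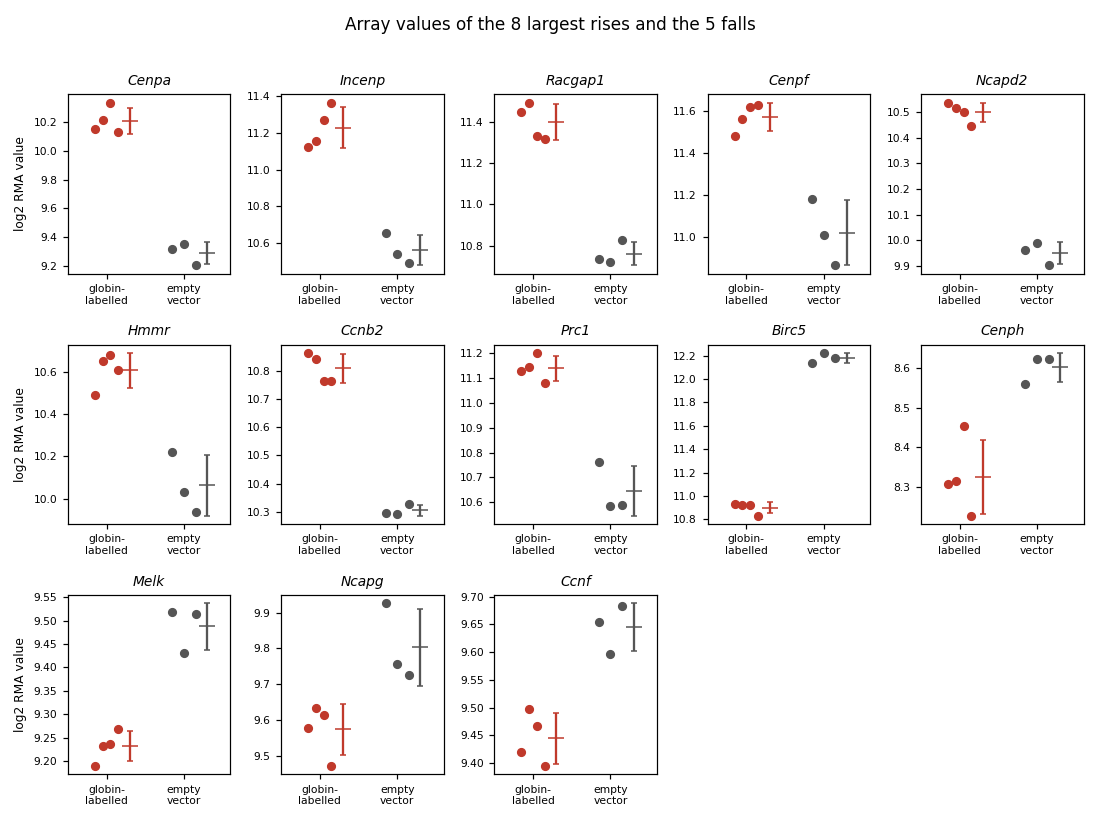
Log2 RMA level in each array for the 8 mitosis genes with the largest rise and the 5 that fell, the 4 globin-labelled arrays (red) left of the 3 empty vector arrays (grey), with mean and SD beside each group; each panel has its own vertical scale, which does not start at 0. In each of the 13 panels the groups do not overlap, with the globin-labelled arrays above in Cenpa to Prc1 and below in Birc5, Cenph, Melk, Ncapg and Ccnf.

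Single arrays of a group differed in how often they were its highest or lowest. Among the 3 empty vector arrays, array 1 was the highest at 26 of the 44 genes and array 2 the lowest at 22. Among the 4 globin-labelled arrays, array 3 was the highest at 21 genes and array 4 the lowest at 21. Bacterial hybridisation controls were lowest in globin-labelled array 4 and in empty vector array 1 among the arrays of their group (8.99 and 9.17). With both arrays left out the counts were 32 higher and 4 lower, against 33 and 5 with all arrays. Over all 22626 probe sets 7375 were called with both left out, against 8931 with all arrays.

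Other probe sets of the same genes gave a check. Of the 44 genes 21 had more than 1 probe set, 32 further ones in all, of which 15 were called higher, 1 lower and 16 did not pass, where 39.5% of all 22626 probe sets were called in either direction. For 12 of the 21 genes each further probe set got the call of the brightest one. Cenpa and Birc5, the largest rise and the largest fall of the 44, had no further probe set, so this check does not reach them. Racgap1 rose by 0.81 ± 0.04 on its other probe set (limma adjusted p = 8.20e-07), more than on the brightest, and Incenp rose by 0.59 ± 0.04 and 0.43 ± 0.05 (limma adjusted p = 9.36e-06 and 1.15e-04). The 3 further probe sets of Hmmr rose by 0.41 to 0.59, and those of Prc1, Tpx2, Cks1b and Cks2 by 0.42 to 0.59. None of the 3 further probe sets of Foxm1 passed, with differences between -0.01 and 0.04, nor did the other probe set of Bub1 (-0.12 ± 0.07). The other probe set of Aurkb had levels of 8.87 to 9.07 in the globin-labelled arrays and 8.90 to 9.13 in the empty vector arrays, with full overlap (limma adjusted p = 0.966), and on the brightest one the levels were 9.22, 9.30, 9.23 and 9.21 in the globin-labelled arrays, against 9.20, 9.19 and 9.22 in the empty vector arrays.

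In 9 genes the probe sets differed in their calls. Ncapg fell on the brightest probe set, whereas its other one had 9.22, 9.13, 9.27 and 9.14 in the globin-labelled arrays, against 9.06, 9.10 and 9.06 in the empty vector arrays and a difference of 0.12 ± 0.05 that did not pass (limma adjusted p = 0.0739). The direction of Ncapg thus differed between its probe sets. Plk4 did not pass on the brightest probe set but fell by 0.32 ± 0.08 on the dimmest, with 9.49, 9.57, 9.45 and 9.20 in the globin-labelled arrays, against 9.80, 9.65 and 9.77 in the empty vector arrays (limma adjusted p = 0.0146). The remaining probe set stood at 0.02 ± 0.04. Bub3 rose on 1 of 4 probe sets, the other differences being 0.00, 0.03 and 0.05. Smc4 rose on 2 of 3, with -0.06 ± 0.07 on the other one, and Cdc20 on 2 of 3, with 0.07 ± 0.05 on the other one. The other probe set of Ccna2 gave 0.13 ± 0.05 (limma adjusted p = 0.0671), close to the brightest in size, and that of Nusap1 gave -0.01 ± 0.04 and had the value 7.78 in all 4 globin-labelled arrays. Spc25 and Top2a had a dim second probe set each, with levels of 6.95, 7.25, 7.18 and 7.27 in the globin-labelled and 7.04, 7.18 and 7.19 in the empty vector arrays for Spc25, and 5.98, 6.04, 5.92 and 6.16 in the globin-labelled and 5.71, 5.89 and 6.20 in the empty vector arrays for Top2a. Neither passed (0.03 ± 0.08 and 0.09 ± 0.10), and their levels lay far below those of the brightest ones.

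**Figure D3:**
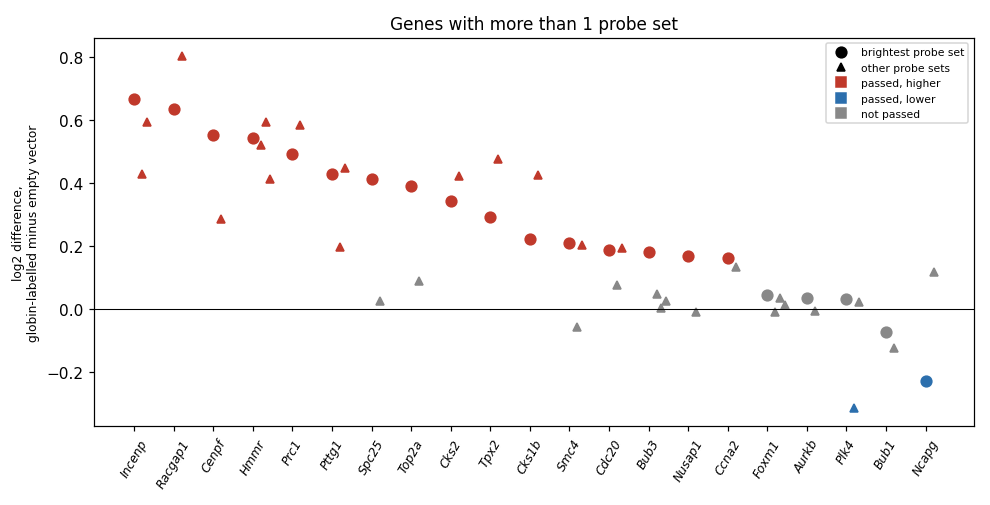
Log2 difference, globin-labelled minus empty vector, on the brightest probe set (circles) and on each other probe set (triangles) of the 21 mitosis genes that have more than 1; colours give the limma call. The triangles of Incenp, Racgap1, Hmmr and Prc1 lie well above 0 with their circles, whereas those of Bub3, Nusap1, Spc25 and Top2a lie near 0 and that of Ncapg lies on the other side of 0 from its circle.

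Chromosomal neighbours were set beside each gene, since the labels do not say whether the cells of the groups share their copy number. The 44 genes lie on 15 chromosomes, with at most 8 on the same one. For each gene the median difference was taken over the 10 nearest measured genes on either side in the RefSeq gene order of GRCm38.p6. These medians ran from -0.24 to 0.30 for the 44 genes, where 95% of all genes had a neighbour median between -0.18 and 0.21. The median of a mitosis gene's difference minus that of its neighbours was 0.33, and over all genes it was 0.00. Outside the 95% range were 4 genes. The neighbours of Birc5 had a median of -0.24, which leaves -1.04 of its -1.28. The neighbours of Cenpe had a median of 0.30, which leaves 0.20 of its 0.49, and those of Incenp 0.26, which leaves 0.41 of 0.67. Smc2, which did not pass, had neighbours at -0.19. For Cenpa the neighbour median was 0.04 and for Racgap1 0.18. The part of copy number in any of these differences was not tested.

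**Figure D4:**
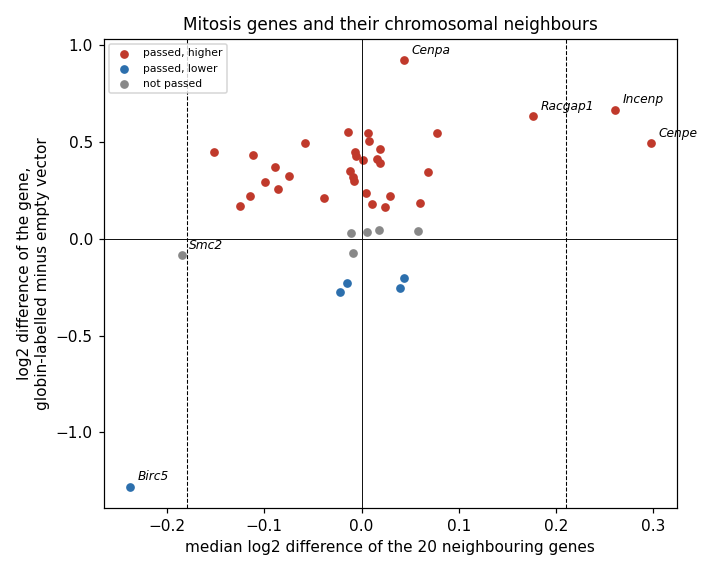
Each point is a mitosis gene, with the median log2 difference of its 20 neighbouring genes on the horizontal axis and its own log2 difference on the vertical axis, both globin-labelled minus empty vector; dashed lines enclose 95% of all genes' neighbour medians, from -0.18 to 0.21. Birc5 lies lowest at -1.28 with a neighbour median of -0.24, and Incenp and Cenpe lie to the right of the upper line.

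Related genes are given by list, to be read against the 20.6% of all genes called higher and 20.1% called lower. In the list of further kinetochore and checkpoint genes, 6 of 20 measured rose and 6 fell, with a median of -0.02. Cenpm, an inner kinetochore subunit, rose by 0.89 ± 0.05 and Pmf1, a subunit of the MIS12 complex, by 0.37 ± 0.05, while Zwint, which links the checkpoint to the outer kinetochore, fell by 0.35 ± 0.04 and Dsn1, another MIS12 subunit, fell by 0.37 ± 0.05 (limma adjusted p = 2.13e-06, 2.38e-04, 1.67e-04 and 4.88e-04). Of 22 further genes of spindle, centrosome and cytokinesis 9 rose and 3 fell, with a median of 0.12. Depdc1a, a protein of dividing cells, rose by 1.43 ± 0.09, the abscission factor gene Cep55 by 0.57 ± 0.07 and the centrosomal kinase gene Nek2 by 0.48 ± 0.05, whereas Haus6, a subunit of the augmin complex that branches spindle microtubules, fell by 0.47 ± 0.06 (limma adjusted p = 4.80e-06, 2.74e-04, 4.08e-05 and 3.30e-04). In the cohesin and other condensin list 5 of 12 rose and 2 fell, with a median of 0.10, and 1 fell without empty vector array 1 or globin-labelled array 1 or 2, or after quantile normalization. The cohesin genes Smc3 and Rad21 rose by 0.86 ± 0.06 and 0.31 ± 0.05 and the condensin II gene Ncaph2 by 0.52 ± 0.04, while Stag1, a cohesin subunit, fell by 0.52 ± 0.06 (limma adjusted p = 5.47e-06, 6.59e-04, 1.84e-05 and 2.09e-04).

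In the list of the anaphase-promoting complex itself 5 of 14 genes rose and 4 fell, with a median of -0.04. Its scaffold genes Anapc1 and Anapc4 fell by 0.25 ± 0.04 and fell by 0.28 ± 0.05, Cdc27 fell by 0.29 ± 0.08, and the cullin-like subunit gene Anapc2 rose by 0.21 ± 0.04 (limma adjusted p = 7.55e-04, 9.10e-04, 0.0135 and 0.00176). The count of higher genes depended on single arrays, being 2 with the mean of each gene's probe sets, 3 without empty vector array 1 or 3, 2 without globin-labelled array 1, 2 or 3 and 1 without empty vector array 2, and the call of Cdc27 ended without empty vector array 1 (limma adjusted p = 0.0575). Of 12 genes that control mitotic entry 4 rose and 4 fell, with a median of 0.04, and 2 fell without empty vector array 1 or 3 or globin-labelled array 2 or 3, and likewise after median centring or quantile normalization of the arrays. Pkmyt1, a kinase that inhibits CDK1, rose by 0.47 ± 0.05, Mnat1, a subunit of the CDK-activating kinase, by 0.20 ± 0.04 and the mitotic kinase gene Pbk by 0.22 ± 0.04, and the stress gene Gadd45a fell by 0.31 ± 0.06 (limma adjusted p = 5.19e-05, 0.00177, 0.00264 and 0.00265).

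Among regulators of these genes, the list of RB family, MuvB, E2F and NF-Y genes had 3 of 18 higher and 7 lower, with a median of 0.02, and 4 lower without empty vector array 2. A trended robust fit called 5 of them higher. Nfyb and Nfyc, subunits of the CCAAT-binding factor, moved apart, by 0.44 ± 0.04 and -0.34 ± 0.06, E2f1, an activator of the G1 to S transition, rose by 0.41 ± 0.05, and the repressor gene E2f6 fell by 0.17 ± 0.04 (limma adjusted p = 6.34e-05, 0.00166, 1.65e-04 and 0.00959). Rbl1, which encodes p107, fell by 0.19 ± 0.05, Lin37, a MuvB subunit, fell by 0.18 ± 0.06, Mybl2, B-MYB, fell by 0.17 ± 0.05 and Rb1 rose by 0.20 ± 0.07 (limma adjusted p = 0.0156, 0.028, 0.0302 and 0.0483). Each of these 4 calls ended without some single array: Rbl1 without empty vector array 1 or 2 (limma adjusted p = 0.0571 and, at the threshold itself, 0.05), Lin37 without empty vector array 2 or 3 or globin-labelled array 2, 3 or 4 (0.0539 to 0.103), Mybl2 without empty vector array 1 or 2 or globin-labelled array 2, 3 or 4 (0.0646 to 0.113), and Rb1 without any array but globin-labelled array 1 (0.0535 to 0.169). Of 26 DNA replication genes, active in the preceding S phase, 17 rose and 1 fell, with a median of 0.19. The 1 that fell was Pcna, at -0.21 ± 0.04 (limma adjusted p = 0.00291). Rrm2, a ribonucleotide reductase subunit, rose by 1.0 ± 0.08, Pole, a replicative polymerase, by 0.65 ± 0.05, the helicase gene Mcm5 by 0.44 ± 0.04 and the cyclin gene Ccne1 by 0.44 ± 0.05 (limma adjusted p = 1.25e-05, 9.83e-06, 2.60e-05 and 8.09e-05). Over the 7 lists together 49 of 124 genes rose and 27 fell, with a median of 0.08, beside the 33 and 5 of 44 and the median of 0.31 given above. The difference between the lists was not tested, and genes and lists were chosen with earlier results of these data known.

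**Figure D5:**
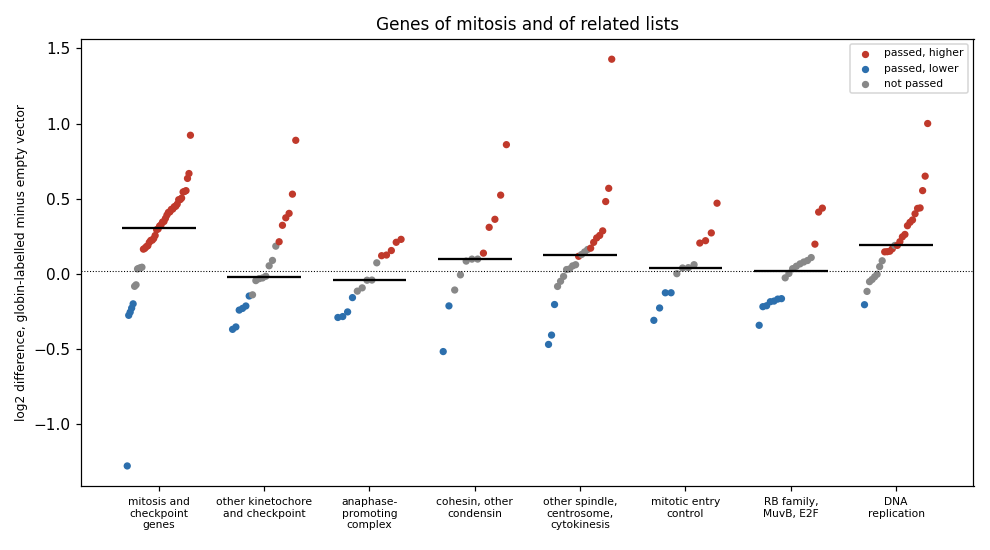
Log2 difference, globin-labelled minus empty vector, of the 44 mitosis and checkpoint genes (left) and of 7 lists of related genes, 1 point per gene ordered by value within its list and coloured by its limma call; black bars are list medians and the dotted line is the median of all genes at 0.02. The bar stands at 0.31 for the mitosis genes and 0.19 for DNA replication, and between -0.04 and 0.12 for the other 6 lists.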

How the data were processed

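Total RNA of 7 MN9D samples was labelled with biotin and hybridised to 1 array each, per the labels' protocols. What the authors deposited are log2 levels, summarised with RMA according to the submitters' processing notes (version and settings: not given in the sources used here). As usually run, this method makes the arrays' distributions alike, which hides any change common to most transcripts. The deposited log2 values (array medians 8.90 to 8.94) were used as they stood. The table held 22690 probe sets, and 22626 were tested after 64 control sets of the array had been taken out. The platform annotation gave 1 gene symbol for 20380, several for 691 and none for 1555, and 0 symbols changed through the RefSeq table of GRCm38.p6. A gene was represented by its probe set of 1 symbol with the highest mean over all 7 arrays. Brightest probe sets ending in _x_at, _s_at or _a_at, which can read related transcripts or several transcripts of a gene, represented 21 of the 44 genes.

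limma 3.58.1 in R 4.3.3 (lmFit with eBayes, no term but group, 5 residual and 9.10 total degrees of freedom) gave two-sided tests with Benjamini-Hochberg adjustment over the 22626 probe sets, and the fit was checked on data simulated from the real means and spread. Confidence intervals are at 95%. The members and lists were chosen with earlier results of these data known. Array values are given for the 8 largest rises, each fall and genes whose probe sets differ in call or direction. Of each related list up to 4 called genes are named by smallest p, with called RB family and MuvB genes and the 1 DNA replication gene that fell.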

Additional observations from a re-analysis of the deposited data

Results flagged for a closer look

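In groups of 4 arrays a value was singled out where its gap to the nearest other array passed Dixon's 95% critical value as a share of the whole range, which happens by chance in about 1 of 20 groups; 76 genes were looked at in the 4 globin-labelled arrays and 3 met it. For Birc5 the gap was 0.912 of the range, with globin-labelled array 4 at 10.83 and the others at 10.92 to 10.93, all far below the empty vector arrays. For Cdc27, globin-labelled array 2 was the highest, with a gap of 0.894 of the range, at 9.15 against 8.90, 8.93 and 8.92 in the others. For Rrm2, globin-labelled array 1 was the lowest, with a gap of 0.931 of the range, at 11.49 against 11.67, 11.66 and 11.66 in the others.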

How the results depend on the processing

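Of the 33 mitosis genes that rose, 24 kept their call in each of 17 alternatives that held them, and 10 also in limma's treat test at a minimum fold of 1.2; of the 5 that fell, 3 and 1 did. That test left 10 mitosis genes higher and 1 lower, and 13 and 1 of the related lists, against 49 and 27. Over all 22626 probe sets it called 2066 in either direction, against 8931 in the main fit. With probe sets ending in _x_at, _s_at or _a_at removed, 32 mitosis genes were left, their median was 0.23, 22 rose and 2 fell. Of all 14098 probe sets left, 5580 were called in either direction. Cenpa and Birc5 were not among these 32. Deviations of same-numbered arrays from their group means correlated at -0.364, -0.299 and -0.145, and those of arrays with different numbers at -0.227 to 0.28. No same-numbered arrays thus correlated positively, but whether the arrays were paired was not settled by these values. With the replicate block, where globin-labelled array 4 has no partner and adds nothing to the difference, 26 mitosis genes rose and 3 fell, and 35 and 15 of the related lists. The block called 6337 of all 22626 probe sets in either direction, against 8931 in the main fit. With globin-labelled array 4 and empty vector array 1 both left out, 17 genes of the related lists fell. The mean of a gene's probe sets turned Plk4 to -0.09. Leaving out 1 array at a time gave 28 to 32 higher and 5 lower mitosis genes, with medians of 0.29 to 0.32, and 37 to 47 higher and 19 to 24 lower in the related lists. Over all 22626 probe sets, leaving out 1 array called 7803 to 8271, against 8931 with all arrays. Fewer probe sets or arrays enter some of these settings; the cause of the other shifts was not tested. Array weights, dim probe set removal, centring, quantile normalization and a trended robust fit moved the counts over all mitosis genes and over the related lists together by less than 1.5 times. Single lists moved more: genes of mitotic entry that fell were 2 under median centring, quantile normalization or the replicate block, against 4, and the replicate block left 2 lower in the RB, MuvB and E2F list, against 7, and 2 higher and 2 lower in that of the anaphase-promoting complex, against 5 and 4. Without probe sets ending in _x_at, _s_at or _a_at, 11 DNA replication genes rose, against 17.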
